A study of Homo sapiens with 4 samples.

Results

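The nuclear genes that encode the subunits of oxidative phosphorylation were compared between CHD7 knockdown and control cells. Members were the genes of the deposited expression table whose symbols follow the naming of the subunits of complex I (NDUFA, NDUFB, NDUFC, NDUFS and NDUFV genes), complex II (SDH genes), complex III (UQCR genes and CYC1), complex IV (COX4 to COX8 genes with a letter A to C) and the ATP synthase (ATP5 genes). Assembly factors named NDUFAF and 2 read-through genes with hyphenated names were left out, which left 82 of 15357 genes. Of these, 36 belong to complex I, 4 to complex II, 10 to complex III, 14 to complex IV and 18 to the ATP synthase. NDUFA4 and NDUFA4L2 were placed with complex IV, and the inhibitor gene ATP5IF1 with the ATP synthase.

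The samples were RKO cells, a human colon cancer cell line, carrying a control lentivirus (vector, n = 2) or a lentivirus expressing a short hairpin RNA against the mRNA of CHD7, an ATP-dependent chromatin remodeller (shCHD7_2, n = 2). Both groups were stable lines made by infection and grown in the same medium, and shCHD7_2 is a single hairpin, so an effect of CHD7 loss and an effect particular to that hairpin cannot be told apart. Libraries were made from polyadenylated RNA with oligo-dT beads. The labels do not say whether the samples of a group came from separate cultures, and p-values then measure the spread between these samples only.

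Oxidative phosphorylation takes place in the inner mitochondrial membrane. Complexes I and II pass electrons from NADH and succinate to ubiquinone, complex III passes them on to cytochrome c, and complex IV passes them to oxygen. Complexes I, III and IV pump protons as they do so, and the ATP synthase uses the resulting gradient to make ATP. Most subunits are encoded in the nucleus, and a small set of core subunits is encoded in mitochondrial DNA. The mitochondrially encoded genes were not analysed here.

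Of the 82 genes, 80 passed the filter on low counts and entered the quasi-likelihood test of edgeR. The other 2, UQCRHL and COX7A1, had 1 count at most in any sample. A gene was called at a Benjamini-Hochberg adjusted p under 0.05 over all 11955 genes tested. Total counts lay between 15734666 and 16068642 per sample, and values are given as CPM, counts scaled to the same total per library, on library sizes scaled by TMM, or as FPKM where levels of different genes are compared. CHD7, the targeted gene, had 85.4 and 91.0 CPM in the vector samples and 55.5 and 50.1 CPM in the shCHD7_2 samples. The log2 fold change of CHD7 was -0.74, with a standard error of 0.088 (edgeR, adjusted p = 4.15e-06). The summed FPKM of the epithelial marker genes in the table (EPCAM, KRT8, KRT18 and CDH1) lay between 70.7 and 84.4 in the 4 samples. CDH1 was at or near 0. The colon gene CDX2 lay between 4.58 and 5.89 FPKM, while KRT20, the other listed colon gene in the table, was at 0.04 FPKM or less. Of the listed markers, 2 of 6 fibroblast, 1 of 5 blood and 2 of 3 endothelial genes were in the table. Each of these groups summed to 0.10 FPKM or less in every sample.

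The shCHD7_2 samples differed from each other in the level of these genes. The value of replicate 2 was above that of replicate 1 for 73 of the 80 genes (91.2%), against 50.1% of all genes tested, and the median difference was 0.16 on the log2 CPM scale, against 0.00036 for all genes. The difference moved with transcript length. Among all tested genes of at most 0.5 kb effective length, the length implied by the deposited count and FPKM, the median difference was 0.20, and among those of more than 4 kb it was -0.10. The subunit genes are short, with a median of 0.647 kb against 2.89 kb for all tested genes, and 65.0% of them were at or under 1 kb, against 7.75% of all. Between the vector samples, replicate 1 was above replicate 2 for 50 of the 80 genes, with a median difference of 0.029, against -0.0064 for all genes. The vector difference also moved with length. Its median was 0.050 among all tested genes of at most 0.5 kb and -0.050 among those of more than 4 kb. Which of the shCHD7_2 samples is used therefore changes the common level of the set. The median log2 fold change of the 80 genes was 0.057 with all samples, 0.16 without shCHD7_2 replicate 1 and -0.015 without shCHD7_2 replicate 2. Without that last sample the medians of complex IV (0.025 with all samples) and of the ATP synthase (0.047) were -0.088 and -0.057.

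**Figure D1:**
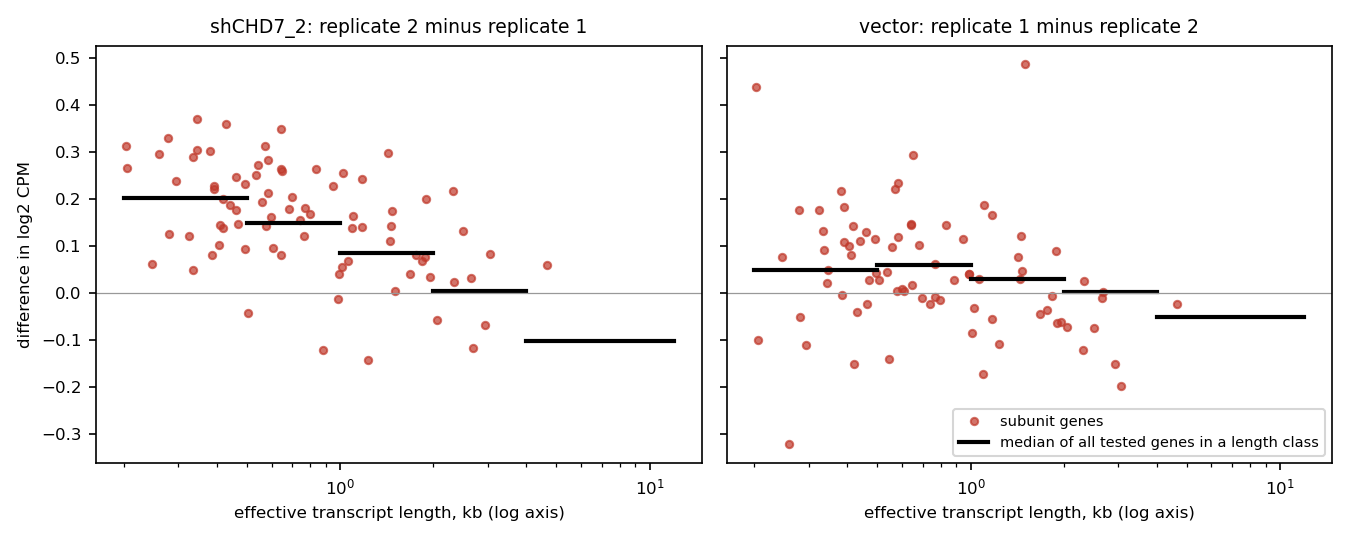
Difference in log2 CPM between the replicates of a group (left, shCHD7_2 replicate 2 minus replicate 1; right, vector replicate 1 minus replicate 2) against effective transcript length in kb on a log axis. Each red point is 1 of the 80 tested subunit genes and each black line is the median of all tested genes in a length class, the last class being open at its upper end; the red points on the left lie above 0 for 73 genes and those on the right for 50.

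Across the whole set, 5 of the 80 tested genes were called (6.25%), against 11.5% of all genes tested. COX7C, UQCR11 and UQCR10 were higher in shCHD7_2 cells (3 of 80, against 4.94% of all genes called higher), and ATP5MD and UQCRC2 were lower (2 of 80, against 6.54% called lower). With a fold change of at least 1.5 as well, 2 of 80 remained (2.50%, against 2.88% of all genes), COX7C higher (background 1.51%) and ATP5MD lower (background 1.37%). The share of called subunit genes was thus not above that of all genes under either rule in this fit. Among the alternatives the order went both ways. With no fold threshold, limma on log2(FPKM + 1) called 10 of 79 (10.4% of all genes) and edgeR with a length offset 10 of 80 (19.2%). With the threshold, DESeq2 called 2 of 80 (1.85% of all genes) and edgeR on library totals 2 of 80 (2.89%). At an unadjusted p under 0.05 there were 18 of 80. The share of all genes at that threshold was not counted, so this count and those by complex and list below cannot show an excess. By direction alone, 56 of the 80 estimates were above 0 (70.0%, against 50.1% of all genes) and 24 below. For 71 of 80 the change was under a 20% rise or under a fall of the same fold (88.8%, against 78.2% of all genes). Both shCHD7_2 samples lay above both vector samples for 25 of 80 genes (31.2%, against 26.4% of all genes) and below both for 8 of 80 (10.0%, against 27.3%). The replicate difference by transcript length described above moves with these counts, and its part in them was not tested. In bulk RNA, a lower transcript level per cell and fewer cells carrying the transcript cannot be told apart.

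**Figure D2:**
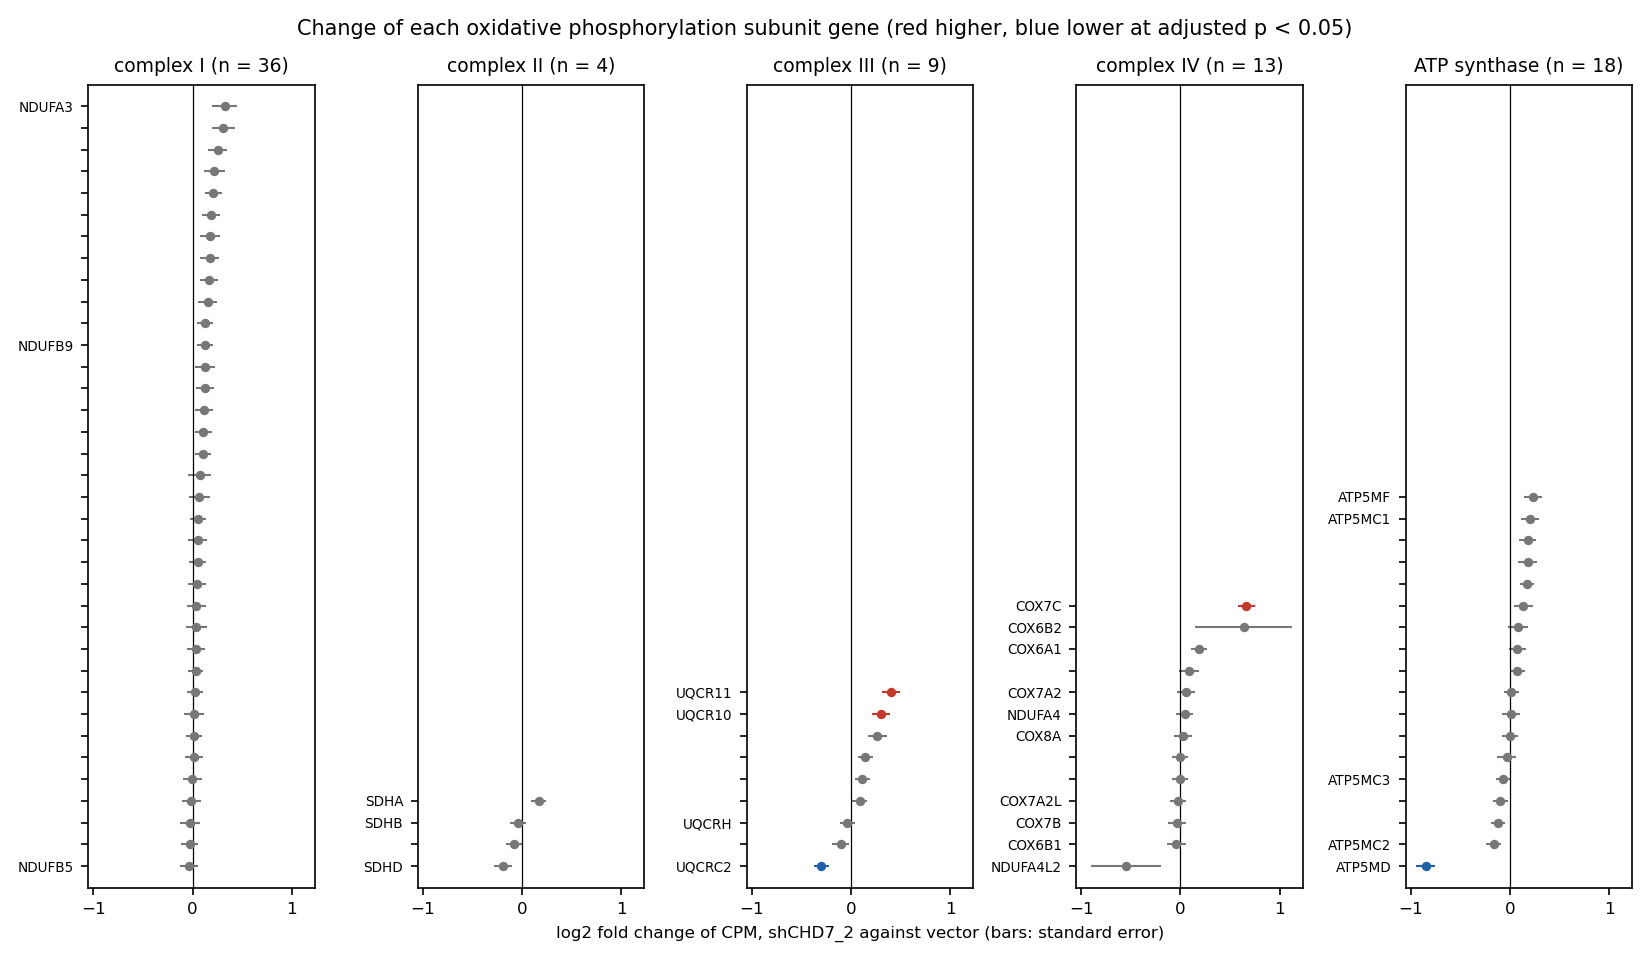
Log2 fold change (shCHD7_2 against vector) of the 80 tested subunit genes by respiratory complex, with points for the edgeR estimates and bars for standard errors (n = 2 samples per group) and names beside some of the genes described in the text. Red and blue points mark the 5 genes called higher or lower at an adjusted p under 0.05; COX7C at 0.66 and ATP5MD at -0.85 stand at the ends, and the points of complex I lie between -0.035 and 0.33.

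COX7C, a small nuclear-encoded subunit of cytochrome c oxidase, had the highest log2 fold change of the set. It had 76.4 and 72.4 CPM in the vector samples and 115.4 and 120.5 CPM in the shCHD7_2 samples. Both shCHD7_2 values stood well above both vector values, and the replicates of each group were close. Mean CPM rose from 74.4 ± 2.82 (SD, n = 2) in vector to 117.9 ± 3.64 (SD, n = 2) in shCHD7_2 cells, with a log2 fold change of 0.66 (95% interval 0.49 to 0.84, adjusted p = 7.75e-06 from edgeR). COX7C lies at chr5:86617904-86620962 on the plus strand (GENCODE 29, GRCh38). Its effective length of 0.246 kb is in the class with the largest difference between the shCHD7_2 replicates. Its log2 fold change lay between 0.60 and 0.71 over the 16 alternatives, leaving out each sample included.

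ATP5MD, a small membrane subunit of the ATP synthase also known as USMG5 or DAPIT, moved the other way. It had 44.8 and 46.4 CPM in the vector samples and 24.2 and 26.4 CPM in the shCHD7_2 samples. The groups did not overlap, and the gap between them was many times the difference within either. Mean CPM fell from 45.6 ± 1.13 (SD, n = 2) in vector to 25.3 ± 1.59 (SD, n = 2) in shCHD7_2 cells, with a log2 fold change of -0.85 (95% interval -1.05 to -0.65, adjusted p = 1.92e-06 from edgeR). Over the 16 alternatives the log2 fold change lay between -0.92 and -0.79. The gene lies at chr10:103389041-103396492 on the minus strand. As with COX7C and UQCRC2, GENCODE 29 names 1 pseudogene of it, and reads shared with such copies make a count less certain; the counts of ATP5MD and COX7C were whole numbers in all samples.

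Complex III held the other 3 called genes, of 9 tested (33.3%, against 11.5% of all genes). Whether this is an excess was not tested. UQCR11, a small accessory subunit at chr19:1597172-1605490 on the minus strand, had 77.2 and 68.7 CPM in the vector samples and 88.2 and 104.5 CPM in the shCHD7_2 samples. The groups did not overlap, although the replicates of shCHD7_2 were spread more widely than those of vector. The log2 fold change of UQCR11 was 0.40, with a standard error of 0.094 (edgeR, adjusted p = 0.00587). UQCR10, another small accessory subunit at chr22:29767369-29770413 on the plus strand, had 43.3 and 41.4 CPM in the vector samples and 50.1 and 54.5 CPM in the shCHD7_2 samples. The groups did not overlap here either, and the log2 fold change was 0.30, with a standard error of 0.090 (edgeR, adjusted p = 0.0299). UQCRC2, core protein 2 of the complex at chr16:21952660-21983660 on the plus strand, had 191.4 and 201.1 CPM in the vector samples and 162.4 and 156.2 CPM in the shCHD7_2 samples. It fell by 0.30 on the log2 scale (standard error 0.076, adjusted p = 0.0104 from edgeR), and its partner core protein UQCRC1 had a log2 fold change of 0.11 (adjusted p = 0.387). Of the 16 alternatives, 11 kept the call of UQCR11, 10 that of UQCRC2 and 8 that of UQCR10. Without shCHD7_2 replicate 2, the sample in which short transcripts were higher, UQCR11 was at 0.28 and UQCR10 at 0.24, and neither was called in edgeR. Calls were also lost when a vector sample was left out. Without vector replicate 2, UQCRC2 was at -0.27 and none of the 3 genes was called. Without vector replicate 1, UQCR10 and UQCRC2 were not called.

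The remaining genes of complex III showed no call. Over its 9 tested genes the median log2 fold change was 0.11, and 6 estimates were above 0 and 3 below. The median was 0.17 without shCHD7_2 replicate 1 and 0.056 without shCHD7_2 replicate 2. UQCRQ, a small ubiquinone-binding-site subunit, had 76.9 and 72.8 CPM in the vector samples and 80.5 and 99.1 CPM in the shCHD7_2 samples (log2 fold change 0.26, adjusted p = 0.0775 from edgeR). UQCRFS1, the Rieske iron-sulfur protein that takes electrons from ubiquinol, was at 0.14 (adjusted p = 0.27), and CYC1, cytochrome c1, at -0.10 (adjusted p = 0.488). UQCRH, the hinge protein, was the most abundant of the complex at 417.6 FPKM and had a log2 fold change of -0.040 (adjusted p = 0.79), with 201.0 and 197.1 CPM in vector and 183.7 and 203.4 CPM in shCHD7_2 cells.

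In complex I, the entry point for NADH electrons, no gene of 36 was called by DESeq2, or by edgeR with TMM, all samples and no block or offset. At an unadjusted p under 0.05 there were 5 in edgeR and 3 in DESeq2, and limma on log2(FPKM + 1) called 4 (NDUFA1, NDUFA2, NDUFA8 and NDUFB7, all with estimates above 0). EdgeR called 2 with library totals, 1 with a length offset and 10 with the replicate numbers crossed in a block. Of all genes tested, these settings called 12.4%, 19.2% and 31.4%. The calls also changed when a sample was left out. The estimates were nearly all on 1 side, with 31 above 0 and 5 below, against 50.1% of all genes above 0. They were small, with a median of 0.071 and a range of -0.035 to 0.33. The summed level of the 36 genes was 2484 and 2413 CPM in the vector samples and 2457 and 2732 CPM in the shCHD7_2 samples, so that shCHD7_2 replicate 1 lay between the vector samples and replicate 2 above both. The median log2 fold change of the complex was 0.17 without shCHD7_2 replicate 1 and 0.020 without shCHD7_2 replicate 2. The 7 catalytic core genes, which carry the flavin and iron-sulfur centres and the ubiquinone site, had a median of 0.036 and none had an unadjusted p under 0.05. The 29 accessory genes had a median of 0.11 and are shorter, with a median effective length of 0.5696 kb against 0.7974 kb for the core genes.

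NDUFA3, an accessory subunit, had the highest estimate of complex I. It had 28.6 and 21.0 CPM in the vector samples and 27.6 and 34.5 CPM in the shCHD7_2 samples. The groups overlapped, and the log2 fold change of 0.33 (95% interval 0.061 to 0.59) missed the threshold (adjusted p = 0.106 from edgeR). It was 0.12 without vector replicate 2 and 0.16 without shCHD7_2 replicate 2, and it passed at 0.56 without vector replicate 1 and at 0.47 without shCHD7_2 replicate 1 (edgeR, adjusted p = 0.00402 and 0.00193). NDUFA2 followed at 0.31 (adjusted p = 0.0772), with 29.2 and 25.0 CPM in vector and 29.9 and 37.3 CPM in shCHD7_2 cells. NDUFB5 had the lowest estimate, with 53.3 and 52.3 CPM in the vector samples and 53.7 and 49.4 CPM in the shCHD7_2 samples. Its log2 fold change of -0.035 (95% interval -0.22 to 0.15) turned to 0.0094 with library totals in place of TMM. NDUFB9, the most abundant gene of the complex at 387.0 FPKM, was at 0.13 (adjusted p = 0.337).

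Complex II, succinate dehydrogenase, has 4 subunits, all nuclear-encoded. None was called by DESeq2, by limma on FPKM values, or by edgeR with TMM, all samples and no block or offset. With a length offset, edgeR called SDHA (adjusted p = 0.049). With the replicate numbers crossed in a block, it called SDHA and SDHD (2 of 4, against 31.4% of all genes). At an unadjusted p under 0.05 there were 2 in edgeR, 1 in DESeq2 and 1 in limma, and the 2 in edgeR, SDHA and SDHD, had estimates of opposite sign. SDHA, the flavoprotein that oxidises succinate, had 151.2 and 152.3 CPM in the vector samples and 169.0 and 172.9 CPM in the shCHD7_2 samples. Its replicates were close and its groups did not overlap, with a log2 fold change of 0.17 (95% interval 0.016 to 0.33, adjusted p = 0.151 from edgeR). SDHD, a membrane anchor, had 80.2 and 86.4 CPM in the vector samples and 76.6 and 69.4 CPM in the shCHD7_2 samples (log2 fold change -0.19, 95% interval -0.37 to -0.0094, adjusted p = 0.171 from edgeR). The other anchor, SDHC, was at -0.077 (adjusted p = 0.59). The iron-sulfur subunit SDHB, the most abundant of the complex at 113.9 FPKM, was at -0.038, or 0.0063 with library totals in place of TMM (adjusted p = 0.812 with TMM).

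In complex IV, cytochrome c oxidase, COX7C was the single gene called of 13 tested (7.69%, against 11.5% of all genes). The median log2 fold change was 0.025. The others with at least 1 FPKM in every sample lay between -0.040 (COX6B1) and 0.19 (COX6A1). COX6A1, the most abundant gene of the complex at 450.7 FPKM, had 178.2 and 168.5 CPM in the vector samples and 187.2 and 207.1 CPM in the shCHD7_2 samples (log2 fold change 0.19, adjusted p = 0.134 from edgeR). It was 0.11 without shCHD7_2 replicate 2 and passed at 0.25 without shCHD7_2 replicate 1 (edgeR, adjusted p = 0.0337). COX5A and COX5B, subunits on the matrix side, were at -0.0036 and 0.088 and did not pass the test.

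Several complex IV subunits exist as paralogous isoforms with different tissue distributions, and the widely expressed form was the one at a high level in RKO cells. COX6B1 was at 289.5 FPKM and COX6B2, known as a testis form, at 0.41 FPKM, as means of the 4 samples. COX7A2 was at 187.8 FPKM, COX7A2L, which encodes a factor in supercomplex assembly, at 103.3 FPKM and COX7A1, the heart and muscle form, at 0.025 FPKM. NDUFA4 was at 56.5 FPKM and its paralogue NDUFA4L2, known as a hypoxia-inducible gene, at 1.12 FPKM. COX7B was at 292.9 FPKM and COX8A at 442.4 FPKM, and their paralogues COX7B2 and COX8C, as well as COX6A2, were not analysed here. No isoform gene other than COX6A1 had an unadjusted p under 0.05. NDUFA4L2 had 21 and 22 counts in the vector samples and 13 and 17 counts in the shCHD7_2 samples, the lowest estimate of the complex at -0.55 (95% interval -1.28 to 0.18). COX6B2 had 10 and 5 counts in vector and 12 in each shCHD7_2 sample (log2 fold change 0.64, 95% interval -0.38 to 1.65). At these counts a change of the size seen for COX7C was not detectable. The log2 fold changes of COX6B1 (-0.040), COX7B (-0.031) and COX7A2L (-0.024) turned to 0.0031, 0.013 and 0.019 with library totals in place of TMM, while those of COX7A2 (0.055) and NDUFA4 (0.043) kept their sign under every scaling tried, and that of COX8A (0.025) turned to -0.037 with a length offset.

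**Figure D3:**
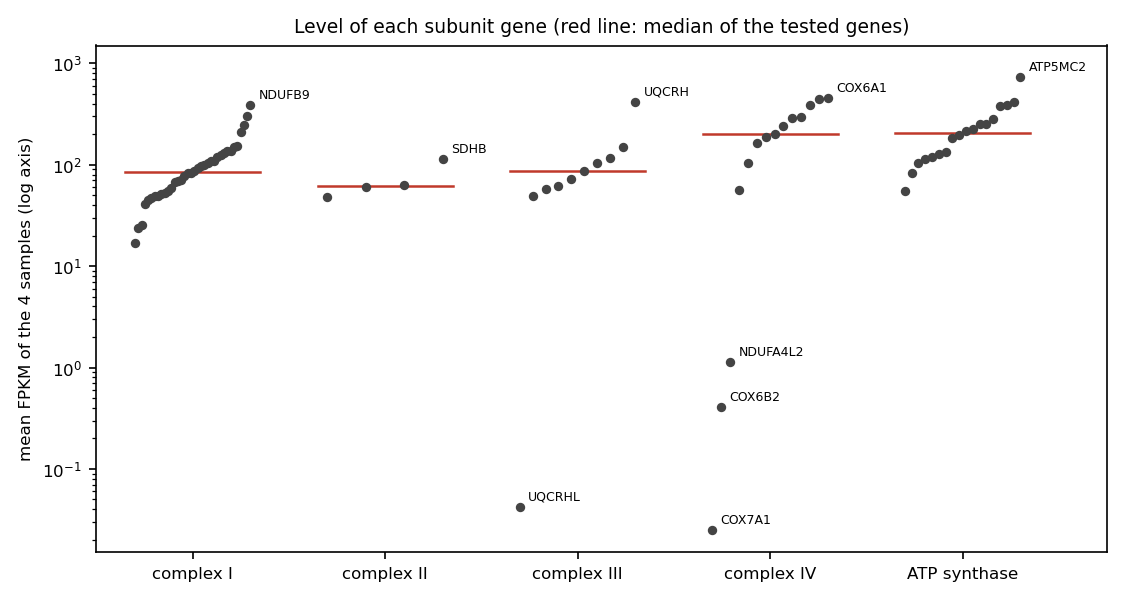
Mean FPKM of the 4 samples for each of the 82 subunit genes by respiratory complex, on a log axis, with points for genes and red lines for the median of the tested genes. ATP5MC2 at 726.3 FPKM is the highest, and UQCRHL, COX7A1, COX6B2 and NDUFA4L2 stand apart at the bottom, at 1.12 FPKM or less.

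The ATP synthase had the highest median level, 205.8 FPKM over its 18 genes, close to the 201.4 FPKM of complex IV. The medians of complexes I, III and II were 85.0, 86.55 and 62.05 FPKM. Complex IV counts COX6B2 (0.41 FPKM) and NDUFA4L2 (1.12 FPKM), which lower its median, so its order with the ATP synthase depends on the genes counted. Of the 18 ATP synthase genes, ATP5MD was the only one called (5.56%, against 11.5% of all genes). Their median log2 fold change was 0.047 with 11 estimates above 0 and 7 below. The catalytic subunits ATP5F1A and ATP5F1B, which form the alternating ring of the F1 head, had estimates of opposite sign. ATP5F1A had 513.1 and 525.5 CPM in vector and 463.7 and 490.9 CPM in shCHD7_2 cells (log2 fold change -0.12, adjusted p = 0.295 from edgeR). ATP5F1B had 643.1 and 663.4 CPM in vector and 724.6 and 745.8 CPM in shCHD7_2 cells (log2 fold change 0.17, adjusted p = 0.119 from edgeR). In both, the groups did not overlap. ATP5MF, a membrane subunit, had the highest estimate at 0.23 (adjusted p = 0.0981), with 123.7 and 116.0 CPM in vector and 126.8 and 155.1 CPM in shCHD7_2 cells. It was 0.081 without shCHD7_2 replicate 2, and it passed at 0.37 without shCHD7_2 replicate 1 and at 0.28 with library totals (edgeR, adjusted p = 0.00142 and 0.0443).

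The proton-carrying c subunit is encoded by 3 genes that give the same mature protein. ATP5MC2 was the most abundant gene of the whole set at 726.3 FPKM, followed among the 3 by ATP5MC1 at 114.9 FPKM and ATP5MC3 at 55.5 FPKM. ATP5MC2 had 393.3 and 363.2 CPM in the vector samples and 326.8 and 348.7 CPM in the shCHD7_2 samples, and was lower in both. Its log2 fold change was -0.16 (95% interval -0.32 to -0.0097, adjusted p = 0.166 from edgeR). ATP5MC1 had 47.0 and 42.5 CPM in vector and 47.9 and 55.1 CPM in shCHD7_2 cells (log2 fold change 0.20, 95% interval 0.0062 to 0.40, adjusted p = 0.181 from edgeR). ATP5MC3 was at -0.064 (95% interval -0.23 to 0.10). None of the 3 passed the test with all samples, TMM and no block or offset. With the replicate numbers crossed in a block, which called 31.4% of all genes, ATP5MC1 and ATP5MC2 were called. ATP5MC1 passed at 0.30 without shCHD7_2 replicate 1 and ATP5MC2 at -0.20 with a length offset (edgeR, adjusted p = 0.0493 and 0.0106).

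Promoters of respiratory subunit genes are known for sites of the factors NRF1, the ETS family (which includes GABP) and YY1. RefSeq promoter sequences (GRCh38.p14, 250 bases before to 50 after the start site) were listed for 67 of the 80 tested genes, 4 of them under a newer symbol. They were searched on both strands for an 8-base word of each factor, GCGCATGC for NRF1, CCGGAAGT for the ETS family and AAGATGGC for YY1. The NRF1 word was present in 14 of 67 genes (20.9%), against 6.70% of the 9719 tested genes with a listed promoter and 3.05% of all 35116 listed promoters. The ETS word was present in 12 of 67 (17.9%, against 10.6% of tested genes and 4.14% of promoters), and the YY1 word in 12 of 67 (17.9%, against 6.78% and 2.89%). In all, 31 of 67 genes (46.3%) held at least 1 of the words and 6 held more than 1, with no words overlapping each other. The YY1 word contains ATG, so it can also lie over a translation start. Of the 5 called genes, 2 held a word, both the ETS word, and they changed in opposite directions, ATP5MD down and UQCR11 up. Windows of the called genes and of an abundant gene for each of the other words are printed 5′ to 3′ on the gene's strand, with the word or its reverse complement in capitals.
ATP5MD (ETS word at position -160 from the start site, chr10:103396617-103396646, minus strand): gtgcaattcttCCGGAAGTgtgggcgggct
UQCR11 (ETS word at position -117, chr19:1605561-1605590, minus strand): tccaaccctcgCCGGAAGTtactgtaagtg
ATP5MC2 (NRF1 word at position -40, chr12:53676105-53676134, minus strand): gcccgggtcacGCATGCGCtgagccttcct
COX6A1 (NRF1 word at position -218, chr12:120437884-120437913, plus strand): ggagggcacacGCATGCGCacgaaggaaac
UQCRC1 (YY1 word at position 23, chr3:48609605-48609634, minus strand): actgcagctggAAGATGGCggcgtccgtgg
The median log2 fold change was 0.043 in genes with the NRF1 word and 0.058 in those without, 0.015 and 0.069 for the ETS word, and 0.094 and 0.051 for the YY1 word. These are descriptions of letters in a window and do not show binding of a factor.

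Earlier work on these same libraries singled out 3 words of 7 bases as frequent in the 3′ UTRs of genes that were lower in shCHD7_2 cells. The first word searched for was GAAGCTA. The second was AGCTATT, and the last, which overlaps it by all but its first base, was GCTATTA. In the longest GENCODE 29 3′ UTR of each gene, 11 of the 80 subunit genes (13.8%) held at least 1 of them, against 22.3% of 11690 tested genes, the subunit genes having a median 3′ UTR of 451 bases against 1360 for all. ATP5MD was the only called gene among the 11. Its 129-base 3′ UTR holds GAAGCTA once, from base 58.
ATP5MD 3′ UTR (chr10:103389097-103389121, GRCh38, minus strand): atgcctggaGAAGCTAatgccaact
The words were chosen on these samples, so the match is no independent evidence about ATP5MD, and its part in the change was not tested. UQCRC2, the other gene called lower, holds none of the 3 words.

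Related genes of mitochondrial respiration were set beside the subunits. NDUFAB1 (the acyl carrier subunit of complex I), COX4I1 and CYCS (cytochrome c) fall outside the naming rule, and their log2 fold changes of 0.043, 0.011 and 0.065 did not pass the test. Of 54 assembly factors of complexes I to V, 3 rose and 2 fell, with a median of 0.051 (5 called of 54, against 11.5% of all genes). NDUFAF1, an assembly factor of complex I, had 26.5 and 26.9 CPM in vector and 36.2 and 32.9 CPM in shCHD7_2 cells (log2 fold change 0.37, adjusted p = 0.0145 from edgeR). TACO1, a translational activator of mitochondrial COX1, and TMEM70, an assembly factor of the ATP synthase, were at 0.36 and 0.28 (adjusted p = 0.0262 and 0.0474). DESeq2 on the same genes did not call these 3 (adjusted p = 0.084, 0.153 and 0.115). In edgeR, NDUFAF1 and TACO1 were called without shCHD7_2 replicate 2 and TMEM70 without shCHD7_2 replicate 1, and each lost its call when any other sample was left out. The 2 that fell both serve complex III. LYRM7, a chaperone of the Rieske protein, had 37.6 and 35.6 CPM in vector and 28.6 and 22.1 CPM in shCHD7_2 cells (log2 fold change -0.53, adjusted p = 0.00252 from edgeR). TTC19 had 128.8 and 136.6 CPM in vector and 103.2 and 103.5 CPM in shCHD7_2 cells (log2 fold change -0.36, adjusted p = 0.00379 from edgeR), and was not called without vector replicate 2 (adjusted p = 0.126).

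Of the 18 genes of the TCA cycle and pyruvate dehydrogenase, 2 rose and 2 fell, with a median of 0.045 (4 called of 18, against 11.5% of all genes). IDH2, the mitochondrial NADP-dependent isocitrate dehydrogenase, and OGDH, a component of the 2-oxoglutarate dehydrogenase complex, rose by 0.44 and 0.43 on the log2 scale (adjusted p = 0.00108 and 0.00281 from edgeR). SUCLG1 and SUCLG2, subunits of succinyl-CoA ligase, which acts on the product of that complex, fell by 0.43 and 0.30 on the log2 scale (adjusted p = 0.00189 and 0.0189 from edgeR). The call of SUCLG1 held in 12 of 16 alternatives and that of SUCLG2 in 9, and without vector replicate 2 neither was called (edgeR, adjusted p = 0.0656 and 0.29). SUCLG2 was also not called without vector replicate 1 or without shCHD7_2 replicate 2 (edgeR, adjusted p = 0.0695 and 0.0685). Of the 15 tested regulators of mitochondrial biogenesis and mitochondrial DNA, none was called by DESeq2 or by limma. EdgeR with TMM, all samples and no block or offset called none either. At an unadjusted p under 0.05 there were 2 in edgeR, 2 in DESeq2 and 3 in limma with a pseudocount of 1. EdgeR called 2 of the 15 with a length offset (19.2% of all genes) and 6 with the replicate numbers crossed in a block (31.4% of all genes). The calls also changed when a sample was left out. Of the 15 estimates, 9 were above 0 and 6 below, with a median of 0.048. They ran from -0.22 for TFAM, the mitochondrial transcription factor, to 0.23 for POLRMT. NRF1 was at -0.036, GABPA at -0.18 and YY1 at -0.16. Of 8 tested genes for nucleotide and phosphate exchange, 1 was called (against 11.5% of all genes, or 2.88% with the fold threshold as well). With library totals or DESeq2's size factors, 2 were called (12.4% and 11.7% of all genes). Limma on FPKM called 2 with a pseudocount of 1 or 0.1 (10.4% and 10.3% of all genes) and 0 without a filter (0.0521%). EdgeR called 3 with a length offset (19.2% of all genes) and 5 with the replicate numbers crossed in a block (31.4%). The number called also changed when a sample was left out. The gene called in the main test was AK4, an adenylate kinase of the mitochondrial matrix. It had 149.2 and 154.7 CPM in the vector samples and 90.1 and 80.6 CPM in the shCHD7_2 samples, and fell by 0.83 on the log2 scale (standard error 0.083, adjusted p = 2.99e-07 from edgeR). The study singled out AK4 on these samples, so it is not independent evidence for the list.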

How the data were processed

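RNA-seq was performed in 2 vector and 2 shCHD7_2 samples of RKO cells, grouped by their labels. The authors deposited expected counts, estimated per gene and not normalized, and FPKM values, which they had scaled for length and depth. The submitters' processing notes name Bowtie2, RSEM, DESeq2 and the build hg38. RSEM divides reads between genes that share sequence, and 7 of the 82 subunit genes had a count that was not whole, so genes with near-identical copies are less certain.

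Expected counts were rounded, filtered with filterByExpr and scaled by TMM, and tested without a block in edgeR 4.0.16 (R 4.3.3) by the quasi-likelihood test over 11955 genes. Intervals use the t distribution with the degrees of freedom of that test. With 2 samples a group, an exact permutation test (two-sided) reaches 0.333 at best, and only model p-values are given. The members, lists and motifs were chosen with earlier results of these data known. Named genes were CHD7, every called member, the highest and lowest log2 fold change and highest FPKM of each complex, the paralogous isoforms, and up to 5 called genes of each other list. UQCRC1, UQCRQ, UQCRFS1, CYC1, NDUFA2, SDHC, COX5A, COX5B, ATP5F1A, ATP5F1B, NDUFAB1, COX4I1, CYCS, the called genes listed for limma and the regulators named are not covered by the rule and were picked with their values known. Chi-square statistics per gene of 3.47 (vector) and 5.17 (shCHD7_2) showed that the replicates differed by more than sampling noise.

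Alternatives were scaling in edgeR by the size factors of DESeq2 or by library totals, DESeq2 1.42.0 itself, other filters, limma 3.58.1 on log2 FPKM (pseudocount 1 or 0.1), a replicate block and leaving out each sample, with the lone sample of a group then assumed to vary like the others. A crossed block and a length offset were added after the data were seen. On simulated counts for this comparison (11938 genes), the test recovered 81.6% of 98 genes changed 1.5-fold and 96.0% of 99 changed 2-fold, with 13 wrong calls. The simulated counts had the same dispersion for every gene and no replicate difference by transcript length. The rates may therefore not hold for short genes such as the subunits. Gene locations and 3′ UTRs are from GENCODE 29 and promoters from RefSeq. Figures were drawn with matplotlib 3.10.9.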

Additional observations from a re-analysis of the deposited data

How the results depend on the processing

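At an adjusted p under 0.05, 5 subunit genes were called, and 5 with DESeq2's size factors, 4 in DESeq2, 5 with a mean of at least 1 CPM, 10 with library totals, 2 without a filter, 10 and 9 in limma on FPKM with a pseudocount of 1 and 0.1, 10 with the length offset, and 2 to 15 when a sample was left out (2 without vector replicate 2, 15 without shCHD7_2 replicate 1 and 3 without shCHD7_2 replicate 2). The share of all genes called moved between settings too, so these counts do not describe the subunits alone. It was 11.5% in the main test, 11.7% with DESeq2's size factors, 6.69% in DESeq2 and 12% with a mean of at least 1 CPM. It was 12.4% with library totals, 1.31% without a filter, 10.4% and 10.3% in limma (pseudocount 1 and 0.1), and 19.2% with the length offset. The share also changed when a sample was left out. Limma on FPKM without a filter called 0 of 82 under either rule, against 0.0521% of all genes. It had 21 at an unadjusted p under 0.05, and put CHD7 at -0.51 (adjusted p = 0.127). With the fold threshold, 2 genes, COX7C and ATP5MD, were called under every other alternative. The replicate numbers did not pair the samples (correlation of deviations -0.292 over genes). With the replicate block, 3 of 80 genes were called in edgeR (6.32% of all genes) and 2 of 80 in DESeq2 (1.9%). With the numbers crossed, 28 of 80 were called (31.4% of all genes), and 2 of 80 with the fold threshold (3.54%). The median log2 fold change of the set ran from -0.015 to 0.16 when a sample was left out, and was 0.10 with library totals, which put the median of all genes at 0.045, and 0.027 with the length offset. Estimates near 0 changed sign. With library totals, NDUFB5 was at 0.0094, SDHB at 0.0063, UQCRH at 0.0032, COX6B1 at 0.0031, COX7B at 0.013 and COX7A2L at 0.019. In limma on FPKM (pseudocount 1 with and without a filter, then 0.1), NDUFB5 was at 0.0054, 0.0054 and 0.0055, SDHB at 0.0040 in each, COX7B at 0.0018 in each, and COX7A2L at 0.012 in each. With the length offset, COX8A was at -0.037. When a sample was left out, NDUFB5 ran from -0.10 to 0.025, UQCRH from -0.12 to 0.027, COX6B1 from -0.23 to 0.12, COX7B from -0.16 to 0.079, COX8A from -0.14 to 0.17, NDUFA4 from -0.061 to 0.13 and COX7A2 from -0.088 to 0.18. The cause of these changes was not tested. With 2 samples a group, changes under 1.5-fold are the least certain.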
